A study of Arabidopsis thaliana with 8 samples.

Results

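The organellar-type ribosomal proteins of Arabidopsis were followed across 8 seedling libraries. They were chosen by their description alone: an entry of the deposited gene tables counted if its description held the words 50S ribosomal protein or 30S ribosomal protein. This gave 38 of 26987 entries, 28 described as 50S (large subunit) and 10 as 30S (small subunit). All are nuclear genes, with 11 on chromosome 1, 3 on chromosome 2, 11 on chromosome 3, 3 on chromosome 4 and 10 on chromosome 5. The RefSeq annotation text names the plastid for 33 of them, the mitochondrion for 1 (NFD1, a mitochondrial L21 whose loss blocks the fusion of nuclei during reproduction) and neither for 4 (S5, L5, an L24-like protein and AT5G16200, described only as related to a 50S protein). The list is thus mostly, but not wholly, one of plastid ribosomal proteins. It is not the whole plastid ribosome, since proteins encoded in the plastid genome and proteins described in other words are outside it.

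Plastids translate their own messages on a ribosome of bacterial type, with a 50S and a 30S subunit. Some of its proteins are encoded in the plastid genome, and the rest are encoded in the nucleus, translated in the cytosol and imported. Core proteins of photosynthesis are made on this ribosome, which is abundant in greening tissue. Many of its nuclear genes are required for embryo development, as the names emb1473 (L13), emb2184 (L31) and emb2394 (L6) record.

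RNA was taken from whole seedlings, with 1 library per condition and no replicates, so no difference here has a replicate check and none was tested. DAYi seedlings, in Col-0, carry an RNAi hairpin under a dexamethasone (DEX)-inducible promoter against DAY, a chaperone-like protein, and grew on ethanol (EtOH) as mock or on 1 µM DEX. Col-0 wild type and bri1-116, a Col-0 mutant that lacks the brassinosteroid (BR) receptor BRI1, were both mock treated. Each of these 4 kinds of seedling was sampled 5 days after sowing in the dark or at 9 days under 16 h of light per day, so light and age differ together and cannot be told apart. For the dark Col-0 and bri1-116 libraries the titles and the genotype fields give opposite genotypes. They are taken by title here, and exchanging them turns every dark bri1-116 direction. Nothing in the sources used here explains the word "new" at the start of the title of bri1-116 in the light, or the numbers 3 (EtOH) and 25 (DEX) in the DAYi titles. If the numbers name plant lines, line and treatment cannot be told apart. The DAY transcript was lower with DEX in the light, at 6.88 against 56.9 FPKM (fragments scaled by transcript length and sequencing depth). In the dark it went against the label, at 34.8 FPKM in the library labelled DEX against 13.4 FPKM with EtOH. The dark library is therefore called the library labelled DEX throughout. In whole seedlings, fewer cells of a type and less RNA per cell cannot be told apart.

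The sequence just upstream of each gene is shown for 4 entries, chosen for having many, several or none of the words searched. Promoters of Arabidopsis ribosomal protein genes are known for short words such as TGGGCC and TGGGCT (site II elements) and AAACCCTA (the telo-box), so these were searched on both strands, together with the G-box CACGTG, in the 250 bases before each RefSeq gene start. L19-1, a protein at the interface of the subunits, held 5 matches to TGGGCC. S5, a small-subunit protein near the mRNA entry, held 1 TGGGCC, 2 TGGGCT and 1 AAACCCTA. L3-1 and L3-2, 2 copies of an early 23S rRNA binder, held none of the 4 words and are shown for contrast, because their transcripts ran apart. Sequences are from RefSeq, build TAIR10.1, each read 5′ to 3′ on the strand of its gene, with matches on either strand in capitals. The reverse complements GGCCCA (of the first word), AGCCCA (of the second) and TAGGGTTT (of the telo-box) mark matches on the other strand.
L19-1 (AT4G17560), chr4:9779974-9780223, plus strand: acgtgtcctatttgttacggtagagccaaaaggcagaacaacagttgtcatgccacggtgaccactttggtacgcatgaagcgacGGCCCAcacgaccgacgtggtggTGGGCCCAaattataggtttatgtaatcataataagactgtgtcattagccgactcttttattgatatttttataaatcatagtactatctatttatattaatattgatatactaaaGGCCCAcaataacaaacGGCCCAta
S5 (AT2G33800), chr2:14302497-14302746, minus strand: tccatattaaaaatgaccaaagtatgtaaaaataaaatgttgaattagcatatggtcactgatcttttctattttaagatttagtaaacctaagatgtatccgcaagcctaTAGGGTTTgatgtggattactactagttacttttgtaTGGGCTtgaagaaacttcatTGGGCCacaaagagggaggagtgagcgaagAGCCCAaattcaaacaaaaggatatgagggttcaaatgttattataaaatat
L3-1 (AT2G43030), chr2:17894546-17894795, plus strand: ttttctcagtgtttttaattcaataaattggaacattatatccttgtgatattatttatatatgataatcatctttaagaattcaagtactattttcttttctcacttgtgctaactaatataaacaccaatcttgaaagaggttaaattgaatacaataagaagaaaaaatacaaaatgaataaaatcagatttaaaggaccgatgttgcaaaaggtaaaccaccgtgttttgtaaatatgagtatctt
L3-2 (RPL3P), chr3:5979695-5979944, minus strand: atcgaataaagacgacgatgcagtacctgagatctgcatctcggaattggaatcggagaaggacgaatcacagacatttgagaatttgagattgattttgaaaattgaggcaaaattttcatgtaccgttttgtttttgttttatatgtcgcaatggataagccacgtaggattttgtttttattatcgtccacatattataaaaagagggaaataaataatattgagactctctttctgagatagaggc

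TGGGCC was found upstream of 11 of the 38 entries (28.9%), against 13.9% of 26306 genes searched in the same way and 53.1% of 213 genes of cytosolic 60S and 40S ribosomal proteins. TGGGCT was found for 21.1% of the entries (12.5% of all genes, 43.2% of the cytosolic set) and AAACCCTA for 10.5% (4.45% and 21.6%). For either of the site II words, the organellar-type entries stood at 36.8%, between all genes at 19.4% and the cytosolic ribosomal genes at 66.2%. The G-box was present in 5.26% of the entries, namely L1 and PSRP5, and in 6.56% of all genes. TGGGCC can overlap its own reverse complement, as in one stretch of the L19-1 promoter, and is then counted on both strands. These matches describe the letters of the windows and nothing about which factors act there.

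The 38 transcripts were highest in light-grown control seedlings. Summed over the entries, the level was 4340 FPKM in dark Col-0, 10770 FPKM in dark bri1-116, 4595 FPKM in dark DAYi with EtOH and 2962 FPKM in the dark DAYi library labelled DEX. In the light the sums were 18545 FPKM in Col-0, 13073 FPKM in bri1-116, 15231 FPKM in DAYi with EtOH and 3367 FPKM in DAYi with DEX. Both DAYi libraries labelled DEX thus lay below every other library, and the dark bri1-116 library lay between the dark and the light controls. As a share of all FPKM the entries took 0.540, 1.12, 0.476 and 0.257% of the dark libraries, and 1.48, 1.39, 1.28 and 0.363% of the light ones, listed as above. The most abundant entry of the tables, AT2G01021, took between 1.51 and 28.6% of all FPKM and was highest in the dark DAYi library labelled DEX. This bears on such shares and is why a rescaling without it was run. That rescaling sets the FPKM of all other entries to the same total in every library, so it also evens out unequal totals. Summed over all entries, FPKM ran from 803228 in dark Col-0 to 1249520 in light Col-0.

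Of the 38 entries, 37 were above 0 in every library and are the ones counted below. The exception was L12-2 (RPL12-B), one of 3 genes for the stalk protein L12, listed at 0 in 7 libraries and at 0.0417 FPKM in light DAYi with EtOH. Among the 37, the highest library was light Col-0 for 33 entries, and the lowest was the dark DAYi library labelled DEX for 22 and light DAYi with DEX for 12. The highest mean levels over the 8 libraries were those of PSRP5 (518 FPKM), a plastid-specific 50S protein with no bacterial counterpart, L17 (431 FPKM) and L29 (408 FPKM), both at the rim of the exit tunnel, S17 (423 FPKM), which binds 16S rRNA early in assembly, and L27 (392 FPKM), which lies next to the peptidyl transferase centre. PSRP5 had 245, 726, 281 and 173 FPKM in the dark libraries of Col-0, bri1-116, DAYi with EtOH and DAYi labelled DEX. In the light it had 952, 786, 789 and 193 FPKM in the corresponding libraries. Only DAYi with DEX was low among the light libraries, and only bri1-116 was high among the dark ones.

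**Figure D1:**
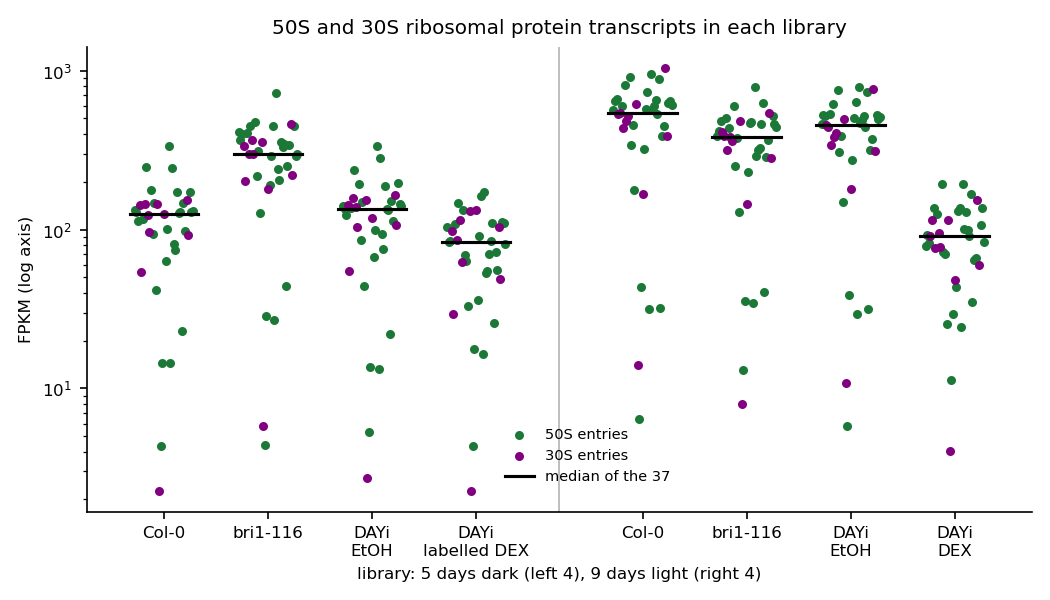
FPKM (log axis) of the 37 entries above 0 in every library, in each of the 8 libraries, with 50S entries in green, 30S entries in purple and the median of the 37 as a black bar. From left to right, the dark medians were 125, 299, 134 and 83.0 FPKM, and the light medians 538, 380, 453 and 91.3 FPKM.

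The levels of the entries lay close together and kept much of their order. The upper quartile was 1.65 to 2.05 times the lower quartile across the 8 libraries, widest in the dark DAYi library labelled DEX. The low entries AT5G16200 and PSRP3-2 (AT5G15760) lay beneath all others in every library. Across the 37 entries, Spearman's rho of the levels was highest between the controls, Col-0 and DAYi with EtOH, at 0.983 in the dark and 0.981 in the light. It was lowest between dark Col-0 and light DAYi with DEX, at 0.621. These are descriptions over genes of the same libraries, which are not independent replicates.

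In the light, nearly all of these transcripts were lower in DAYi seedlings with DEX. A level more than 2-fold lower than with EtOH was found for 33 of 37 entries (23 of 27 50S and 10 of 10 30S), where 16.3% of all entries were, and for none was it more than 2-fold higher, where 12.1% of all entries were. The median log2 ratio of FPKM + 1, a scale that understates differences of low genes, was -2.17 over all 38 entries (L12-2 included, as in all medians) against 0.04 over all entries at 1 FPKM or more. For 25 entries the difference was beyond 4-fold, where 5.55% of all entries were. L19-2 was 6.30-fold lower, at 43.6 FPKM with DEX against 275 FPKM with EtOH. L18, which binds 5S rRNA, was 6.24-fold lower at 82.7 against 516 FPKM, and L6 was 6.15-fold lower at 83.1 against 511 FPKM. L19-1 (25.3 against 149 FPKM), L34 (79.2 against 459 FPKM) and L21 (92.4 against 523 FPKM) completed the 6 with the lowest log2 ratio.

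Few entries departed from this. PSRP3-2, a low copy of a plastid-specific 30S protein, was 2.67-fold lower, at 4.06 against 10.8 FPKM. The L24-like protein (29.5 against 38.8 FPKM) and NFD1 (24.4 against 29.5 FPKM) were within 2-fold, and NFD1 turns to slightly higher when FPKM are rescaled without AT2G01021. L3-2 was at 34.9 against 31.4 FPKM. AT5G16200, a low entry, was the only one more than 1.5-fold higher, at 11.3 against 5.81 FPKM, a 1.94-fold difference that passes 2-fold with that rescaling. None of these 4 entries within 2-fold was above 45 FPKM in any library, whereas the rest of the list, PSRP3-2 apart, reached over 100 FPKM in at least 1.

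In the dark, the same transcripts were more modestly lower in the DAYi library labelled DEX. Of 37 entries, 6 were more than 2-fold lower, against 12.2% of all entries, so the count alone is near the background. None was more than 2-fold higher, against 9.36% of all entries. The whole list was shifted, however: 33 of 37 had a lower level than with EtOH, the median log2 ratio was -0.54 with quartiles at -0.82 and -0.27, and the median of all entries was -0.0042. The lowest ratio was that of L12-3 (RPL12-C), a stalk protein that recruits translation factors, at 70.3 against 187 FPKM. L5, a 5S rRNA binder, had 63.3 against 149 FPKM, and S9, whose tail reaches the tRNA site of the small subunit, had 48.9 against 106 FPKM. The 23S rRNA binder L4 (71.9 against 152 FPKM), L29 (163 against 334 FPKM) and L9 (55.5 against 114 FPKM) were just past 2-fold, at 2.11-, 2.05- and 2.05-fold. At the other end were the L24-like protein at 17.6 against 13.6 FPKM, NFD1 at 16.5 against 13.2 FPKM, L3-2 at 25.9 against 22.1 FPKM and AT5G24490, of a family of ribosome hibernation factors, at 132 against 119 FPKM. Because DAY FPKM were higher in this library, these values cannot be tied to a lowered DAY transcript. Whether DAY was knocked down in it was not tested.

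In dark-grown bri1-116 the direction was opposite, with most transcripts higher than in Col-0. Of 37 entries, 29 were more than 2-fold higher, against 11.2% of all entries, and none was more than 2-fold lower, against 9.01%. The median log2 ratio was 1.33, against -0.03 over all entries, and all 37 ratios were above 0 as deposited, with AT5G16200 falling just under 0 when rescaled without AT2G01021. PSRP3-1, the abundant copy of a plastid-specific 30S protein, was 3.75-fold higher, at 201 against 53.7 FPKM. L18 was 3.54-fold higher at 402 against 113 FPKM, L28 was 3.51-fold higher at 407 against 116 FPKM and L9 was 3.50-fold higher at 343 against 98.1 FPKM. L34 (414 against 133 FPKM) and S20, an early 16S rRNA binder (299 against 96.9 FPKM), were 3.10- and 3.08-fold higher. The smallest ratios were those of AT5G16200 (4.37 FPKM in both), L29 (446 against 336 FPKM), AT5G24490 (180 against 125 FPKM), L4 (253 against 147 FPKM) and NFD1 (27.1 against 14.5 FPKM). With the genotype fields in place of the titles, the same numbers would read as 29 entries lower in bri1-116.

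In light-grown bri1-116 the transcripts were a little lower than in Col-0. Only 1 entry was more than 2-fold lower, against 7.82% of all entries, and 1 was more than 2-fold higher, against 6.52%. The first was L12-3, at 326 FPKM against 658 FPKM, and the second AT5G16200, at 13.1 against 6.40 FPKM. Next lowest were PSRP6, a plastid-specific 50S protein (292 against 565 FPKM), S17 (540 against 1038 FPKM), L12-1 (RPL12-A, 315 against 603 FPKM), L3-1 (435 against 809 FPKM) and PSRP3-2 (7.98 against 13.9 FPKM), all between 1.75- and 1.93-fold lower. L3-2 (40.5 against 32.0 FPKM) and NFD1 (34.7 against 31.5 FPKM) were not lower. The median log2 ratio was -0.44, against -0.04 over all entries, and 34 of 37 ratios were under 0, which drops to 22 of 37 with a median of -0.05 when FPKM are rescaled without AT2G01021. For scale, the 2 light controls, DAYi with EtOH against Col-0, differed by a median of -0.27 over the same entries, with none beyond 2-fold where 2.18% of all entries were lower and 1.96% higher. The dark controls differed by a median of 0.08, again with none beyond 2-fold (2.22 and 2.19% of all entries).

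**Figure D2:**
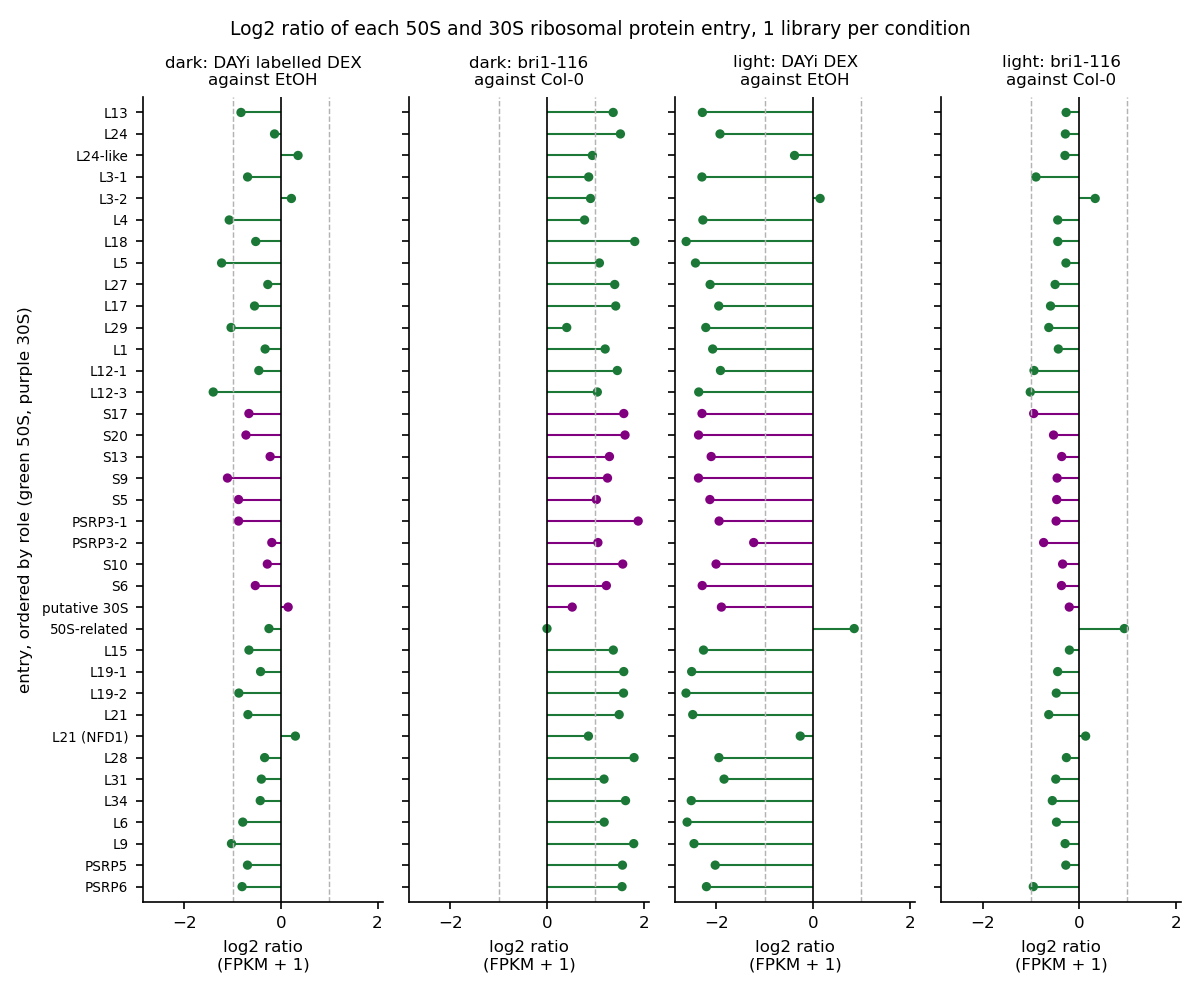
Log2 ratio of FPKM + 1 for each of the 37 entries (rows, ordered by role, 50S in green and 30S in purple) in the 4 comparisons, with dashed lines at 2-fold. The DAYi light panel lies between -2.63 and 0.85 with 33 entries more than 2-fold lower, and the bri1-116 dark panel lies at or above 0 with 29 entries more than 2-fold higher.

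The DAYi and bri1-116 comparisons share no library, so the entries can be set side by side. The joint counts below were not made over all entries, so they do not show what is particular to this list. Taken singly, among all entries at 1 FPKM or more, 9736 of 19311 were lower in DAYi in the dark and 9219 of 19224 higher in bri1-116. In the light, 9278 of 19508 were lower in DAYi and 10444 of 19293 lower in bri1-116. In the dark, 33 of 37 entries were lower in DAYi and higher in bri1-116, 4 were higher in both, and 4 were beyond 2-fold in opposite directions: L12-3, L5, S9 and L9. L12-3 and L5 lose that call in bri1-116 when rescaled without AT2G01021, at log2 ratios of 0.91 and 0.96, and S9 and L9 keep it. All of these dark counts rest on the labels: with the dark Col-0 and bri1-116 libraries exchanged, 33 entries would be lower in both, and with the dark DAYi libraries exchanged, 33 would be higher in both, and none would be beyond 2-fold in opposite directions in either case. L9 had 98.1 FPKM in Col-0 and 343 FPKM in bri1-116, but 114 FPKM in DAYi with EtOH and 55.5 FPKM in the library labelled DEX. In the light, 34 of 37 were lower in both as deposited, and L12-3 alone was beyond 2-fold lower in both. Of the 34, 12 turn to higher in bri1-116 when rescaled to equal totals without AT2G01021, and none when rescaled by median ratios. Spearman's rho of the DAYi and bri1-116 log2 ratios across the 37 entries was -0.124 for dark and 0.328 for light libraries, a description over genes. The log2 ratio was lower in the light than in the dark for 36 of 37 entries in DAYi and for 36 of 37 in bri1-116, the exception in both being AT5G16200. With the dark Col-0 and bri1-116 libraries exchanged, the count for bri1-116 is 2 of 37. None of these differences between light conditions was tested.

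**Figure D3:**
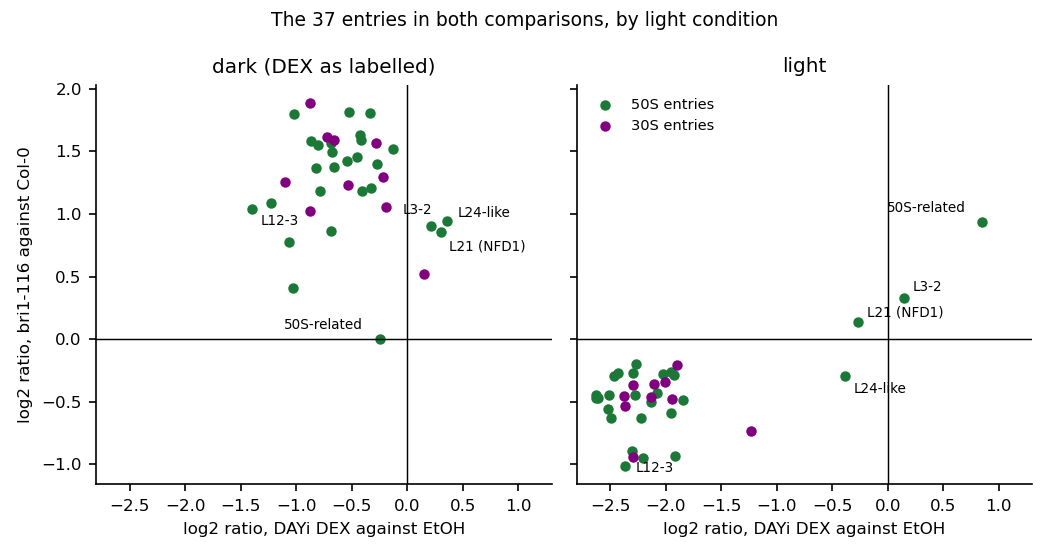
Log2 ratio of FPKM + 1 of each of the 37 entries in DAYi (horizontal axis) and in bri1-116 (vertical axis), in the dark (left) and the light (right), with 50S entries in green and 30S entries in purple. In the dark 33 entries lie at the upper left, lower in DAYi and higher in bri1-116 with the libraries taken by title. In the light 34 lie at the lower left. Of these, 12 turn to higher in bri1-116 when rescaled to equal totals without AT2G01021, and none when rescaled by median ratios.

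Light-grown controls had far more of these transcripts than dark-grown ones, and the other seedlings, taken by title, did not show that distance. These values come from separately deposited tables. In Col-0, 34 of 37 entries were more than 2-fold higher in the light, against 22.9% of all entries, and none was lower by that much, against 19.1%. The median log2 ratio was 2.06, and 2.07 when rescaled by median ratios. It was 1.39 after rescaling to equal totals without AT2G01021, which itself moves the median of all entries to -0.59. PSRP3-1 was 10.02-fold higher, at 538 FPKM in the light against 53.7 FPKM in the dark. L12-1 (603 against 74.7 FPKM), PSRP6 (565 against 81.4 FPKM), L27 (885 against 129 FPKM) and S17 (1038 against 154 FPKM) were 8.08-, 6.94-, 6.85- and 6.76-fold higher, and L18 was 5.81-fold higher at 659 against 113 FPKM. The smallest ratios were 1.33 for AT5G24490 (166 against 125 FPKM), 1.39 for L3-2 (32.0 against 23.0 FPKM) and 1.46 for AT5G16200 (6.40 against 4.37 FPKM), all 3 of which turn to slightly lower with that rescaling, followed by NFD1 (2.17) and L29 (2.19).

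DAYi with EtOH gave a like picture, with 33 of 37 entries more than 2-fold higher in the light against 21.2% of all entries, and none lower by that much against 19.8%. In bri1-116 only AT5G16200 was more than 2-fold higher in the light, against 15.3% of all entries, none was lower by that much, against 12.7%, and the median log2 ratio was 0.27. These values, too, rest on the titles of the dark libraries. With those of Col-0 and bri1-116 exchanged, 31 entries would be more than 2-fold higher in the light in bri1-116, where 19.9% of all entries would be, with a median of 1.62, and 8 in Col-0, with a median of 0.70. Taken by title, the dark bri1-116 level was below that of light Col-0 for 35 of 37 entries, AT5G24490 and L3-2 being the exceptions. Of all entries at 1 FPKM or more, 10400 of 19650 were. In DAYi with DEX, 3 entries were more than 2-fold higher in the light (PSRP3-1, L12-1 and AT5G16200) against 14.9% of all entries, and AT5G24490 was lower, at 47.8 against 132 FPKM, where 13.2% of all entries were. The median log2 ratio there was 0.20. In 26 of 37 entries the light DAYi library with DEX was below the dark DAYi library with EtOH, as in 10129 of 19638 of all entries at 1 FPKM or more.

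Roles in the ribosome are given as known from Escherichia coli. Among the early binders of 23S rRNA, 4 of 6 were more than 2-fold lower in DAYi in the light, where 16.3% of all entries were. These were L3-1, L4, L13 and L24, at 125, 64.6, 107 and 131 FPKM with DEX against 619, 317, 529 and 500 FPKM with EtOH. The other 2, L3-2 and the L24-like protein, are the low copies above. In dark bri1-116, 2 of these 6 early binders were more than 2-fold higher, where 11.2% of all entries were. Their median log2 ratio was 0.92, against 1.33 over the whole list. The 5S rRNA binders L5 and L18 were both among the lower of the list in the light, and in the dark library labelled DEX L5 was past 2-fold lower while L18, at 85.2 against 123 FPKM, was not. At the tunnel rim, L29 stood apart from L17 in dark bri1-116: L29 was 1.33-fold higher, whereas L17 had 478 against 178 FPKM. L1, of the mobile stalk beside the exiting tRNA, had 71.8 FPKM with DEX against 306 FPKM with EtOH in the light.

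In the small subunit, the early 16S rRNA binders S17 and S20 had 155 and 77.4 FPKM with DEX against 764 and 404 FPKM with EtOH in the light. In dark bri1-116 they had 464 and 299 FPKM against 154 and 96.9 FPKM in Col-0. They were less alike in bri1-116 in the light, at log2 ratios of -0.94 and -0.53. S9 and S13, of the small subunit head, had near equal log2 ratios in dark bri1-116 (1.25 and 1.29) but not in the dark DAYi library labelled DEX (-1.11 and -0.22). In the order Col-0, bri1-116, DAYi with EtOH and DAYi with DEX, S5 had dark levels of 146, 297, 158 and 85.5 FPKM and light levels of 437, 317, 342 and 77.1 FPKM. It was thus lowest in both DEX-labelled libraries, and highest in bri1-116 in the dark and in Col-0 in the light. Medians by subunit were close in all 4 comparisons: -0.53 for 50S and -0.60 for 30S in DAYi in the dark, -2.21 and -2.12 in the light, 1.37 and 1.27 in dark bri1-116, and -0.44 and -0.46 in light bri1-116.

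Several proteins are represented by more than 1 gene by their descriptions. Some pairs, among them a plastid and a mitochondrial protein, ran apart, whereas the L19 copies stayed close. In that order, L3-1 had dark levels of 246, 448, 237 and 147 FPKM and light levels of 809, 435, 619 and 125 FPKM. L3-2 had dark levels of 23.0, 43.9, 22.1 and 25.9 FPKM and light levels of 32.0, 40.5, 31.4 and 34.9 FPKM. L3-1 was therefore 25.3 times as abundant as L3-2 in light Col-0, but only 3.58 times in light DAYi with DEX, with 10.2 to 10.7 times in dark Col-0, dark bri1-116 and dark DAYi with EtOH. Their coding sequences share 62.5% of aligned bases and no identical window of 50 bases, so fragments of one are unlikely to be counted for the other.

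The plastid L21 and the mitochondrial NFD1 ran apart in the same way. L21 was 20.5 times NFD1 in light Col-0 and 3.78 times in light DAYi with DEX, and it was 8.96 times in dark Col-0 against 13.6 times in dark bri1-116. NFD1 stayed between 13.2 and 34.7 FPKM in all 8 libraries. L24 and the L24-like protein went from a ratio of 13.1 in light Col-0 to 4.44 in light DAYi with DEX. The PSRP3 copies, of which PSRP3-1 was always far the more abundant, had a ratio from 13.02 in the dark DAYi library labelled DEX to 48.4 in light bri1-116.

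The L19 copies, in contrast, kept a ratio of L19-2 to L19-1 between 1.10 and 1.85 in all libraries. Both were high in the same libraries: L19-2 had dark levels of 63.1, 191, 67.0 and 36.2 FPKM and light levels of 321, 231, 275 and 43.6 FPKM. L19-1 had dark levels of 41.6, 127, 44.3 and 32.9 FPKM and light levels of 177, 130, 149 and 25.3 FPKM. For L12, the ratio of L12-3 to L12-1 was 1.28 to 2.48 in the dark and 0.768 to 1.09 in the light. L12-1 and L12-3 share 93.6% of aligned coding bases and 42.5% of 50-base windows, so their separate values, and the calls on L12-3 above, depend on how shared fragments were assigned and are uncertain.

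**Figure D4:**
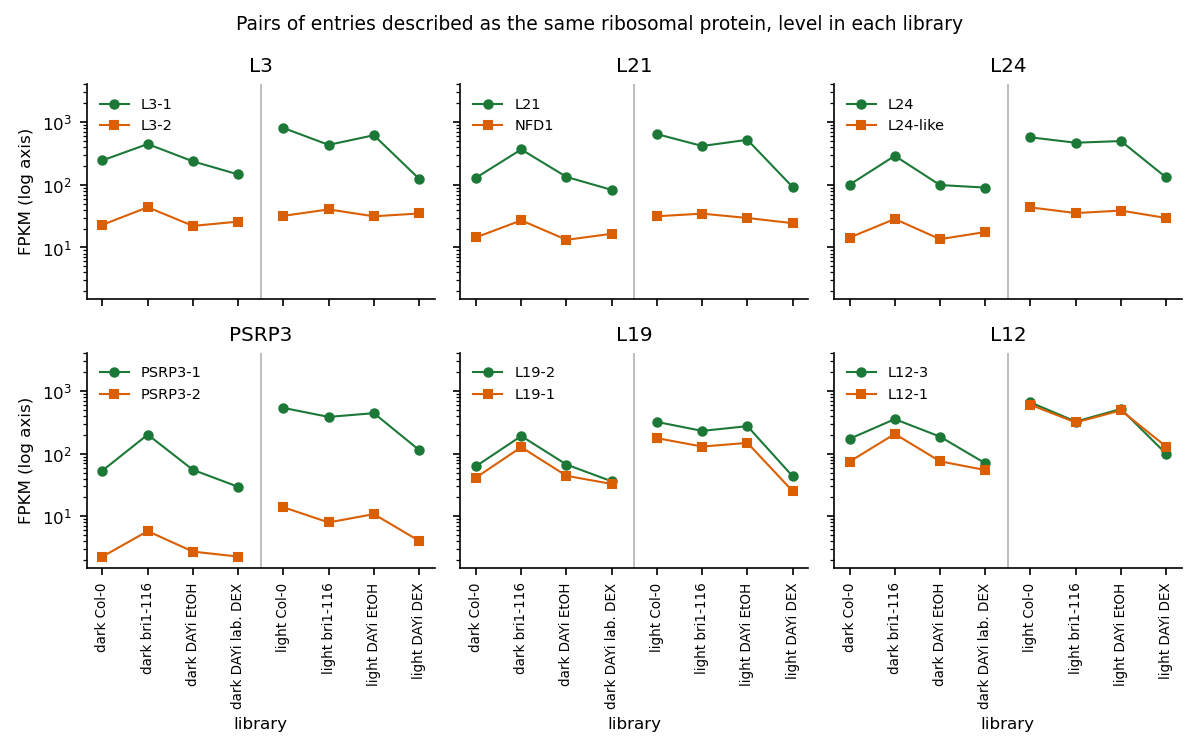
FPKM (log axis) in each of the 8 libraries for 6 pairs of entries described as the same ribosomal protein, dark libraries left and light libraries right of the grey line. The lines of L3-1 and L3-2 are 25.3-fold apart in light Col-0 and 3.58-fold apart in light DAYi with DEX, while those of L19-2 and L19-1 stay 1.10- to 1.85-fold apart.

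Other genes of plastid gene expression were taken from lists of translation factors (12), ribosome assembly factors (13) and plastid RNA polymerases with their associated proteins (PAPs, 13). Their medians lay on the same side of 0 as that of the ribosomal proteins in the 4 comparisons within a light condition. In bri1-116 light against dark, taken by title, they did not all do so, at 0.49, -0.12 and -0.41 against 0.27. In DAYi in the light, 10 translation factors, 13 assembly factors and 12 polymerase proteins were more than 2-fold lower, where 16.3% of all entries were. None was higher by that much, where 12.1% of all entries were. The median log2 ratios were -1.68, -1.51 and -1.85. EF-Ts, an elongation factor, had 48.9 FPKM with DEX against 218 FPKM with EtOH. SOT1, which acts in plastid rRNA maturation, had 12.4 against 66.9 FPKM, and PAP10, a thioredoxin of the polymerase complex, had 7.90 against 59.9 FPKM. Initiation factor SVR9L1, the least different translation factor, had 18.3 against 24.7 FPKM.

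In bri1-116 in the dark, 6 of 12 translation factors, 9 of 13 assembly factors and 10 of 13 polymerase proteins were more than 2-fold higher. Of all entries, 11.2% were. The medians of these lists were 1.02, 1.13 and 1.39. The recycling factor HFP108 had 193 against 71.1 FPKM, the assembly factor RBF1 had 34.3 against 11.1 FPKM and the superoxide dismutase PAP9 had 52.3 against 10.7 FPKM. In DAYi in the dark the medians were -0.34, -0.54 and -0.46, with 1 assembly factor (RIF1/NOA1) and 1 polymerase protein (PAP10) more than 2-fold lower. These counts are no more than the background, as 12.2% of all entries were lower by that much. In bri1-116 in the light the medians were -0.56, -0.44 and -0.45, with 2 assembly factors (SOT1 and BPG2) and PAP10 more than 2-fold lower. These counts, too, are near the background, as 7.82% of all entries were lower by that much.

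The proteins of the cytosolic ribosome had medians nearer to 0 than the organellar type in all 4 comparisons, a difference that was not tested. Of 216 entries for 60S and 40S ribosomal proteins, 6 were more than 2-fold lower and 3 higher in DAYi in the light, with a median of -0.59 against -2.17 for the organellar type. In DAYi in the dark the median was 0.04, with 3 of 204 lower (12.2%) and 4 higher (9.36%). In dark bri1-116, taken by title, it was 0.92, with 87 of 206 higher (11.2%) and 3 lower (9.01%). Higher levels there were thus not particular to the organellar type. In light bri1-116 it was -0.10, with 0 of 204 lower (7.82%) and 1 higher (6.52%). In light against dark Col-0 it was 1.55, with 190 of 204 higher (22.9%) and 2 lower (19.1%), where 34 of 37 organellar-type entries were higher.

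**Figure D5:**
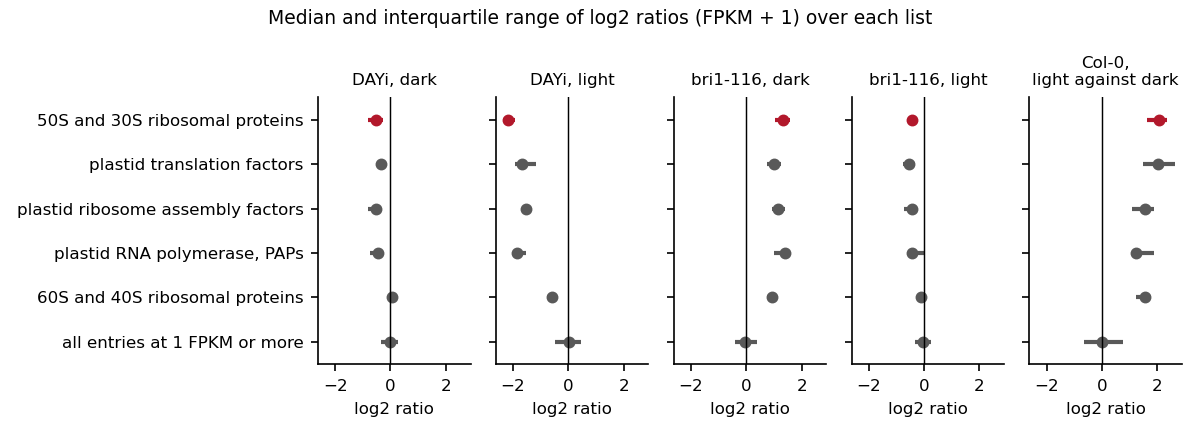
Median (point) and interquartile range (bar) of log2 ratios of FPKM + 1 over the organellar-type ribosomal proteins (red) and 5 other sets of entries (grey), in 5 comparisons. In DAYi in the light the plastid lists lie between -2.17 and -1.51, the cytosolic ribosomal proteins at -0.59 and all entries at 0.04.

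Marker genes of green tissue had medians on the same side of 0 as these transcripts in the 4 comparisons within a light condition. All 8 (genes of the small Rubisco subunit, light-harvesting proteins and other photosynthetic proteins) were more than 2-fold lower in DAYi with DEX in the light (16.3% of all entries). In the dark library labelled DEX, 5 of 8 were (12.2% of all entries). In bri1-116, 7 of 8 were more than 2-fold higher in the dark (11.2% of all entries) and 5 of 8 lower in the light (7.82%). Summed over the 8 and in the order given for S5, dark libraries had 5658, 22997, 5726 and 1837 FPKM and light libraries had 72043, 33180, 67701 and 15769 FPKM, with none of the genes at 0. Between light conditions these markers ran apart from the ribosomal proteins. In DAYi with DEX, 8 of 8 markers were more than 2-fold higher in the light, where 3 of 37 ribosomal entries and 14.9% of all entries were. In bri1-116 taken by title, 6 of 8 were higher (15.3% of all entries), with a median log2 ratio of 1.72 against 0.27. Root markers, 13 of which are in the tables, summed to 476, 143, 705 and 273 FPKM in dark and 306, 147, 234 and 213 FPKM in light libraries. They did not move as 1 group. In the dark DAYi library labelled DEX 6 were more than 2-fold lower (12.2% of all entries), among them CASP1 to CASP5 of the endodermis. There 4 were higher (9.36% of all entries), namely COBL9, EXPA7, EXPA18 and PRP3 of root hairs. In DAYi in the light 9 of 13 root markers were above 0 on the log2 scale, where 10229 of 19508 entries at 1 FPKM or more were. There 3 were more than 2-fold lower (16.3% of all entries) and 0 higher (12.1%). The 3 were the iron transporter gene IRT1, from 107 FPKM with EtOH to 18.1 FPKM with DEX, and the low genes CASP5 (2.04 to 0.566 FPKM) and NRT2.1 (1.49 to 0.516 FPKM). The 5 markers of dividing cells that matched the tables, of 14 listed, summed to 64.3, 48.3, 75.1 and 60.9 FPKM in dark and 185, 122, 164 and 66.3 FPKM in light libraries. Of these markers, 4 of 5 were more than 2-fold lower in DAYi with DEX in the light (16.3% of all entries). The part of tissue makeup in the results above was not tested.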

How the data were processed

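RNA-seq of whole seedlings (TruSeq stranded mRNA libraries, NextSeq500) was processed by the authors with CASAVA 1.8.2, TopHat2 2.0.13 on TAIR10 and Cuffdiff 2.2.0. They deposited FPKM per gene in 4 full tables, 1 for each of the 4 comparisons. Their fold changes, p-values and q-values, and 12 shorter sheets selected by them, were not used. Whether FPKM were scaled together across tables is not known.

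A call is FPKM above 0 in both libraries and a ratio beyond 2, with no pseudocount. Medians are of log2((FPKM + 1)/(FPKM + 1)), for all entries over those at 1 FPKM or more in at least 1 library. With 1 library per condition no test was made. The members, gene lists and tests were chosen with earlier results of these data known. Entries named are the 6 with the largest and the 6 with the smallest log2 ratio in each of the 4 comparisons and in Col-0 light against dark, the 5 with the highest mean, those under 1 FPKM on average or at 0, those called in opposite directions, and copies of a protein; of the other lists, some of the 3 at each end. Other entries are named with their role, chosen after their values were seen.

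Depth is not given in the sources used here. Low FPKM of 2672 intronless genes gave 46.4 to 123 fragments per FPKM and kilobase, but only 46.4 to 61.7% of those values came out whole (within 0.15, against 30% without a fit), so counts were not recovered. File starts are 0-based and were shifted by 1. All 38 members overlap their RefSeq gene in TAIR10.1. 1 upstream sequence is not reported here. Scripts used Python 3.11.15, pandas 2.3.3, numpy 2.4.6 and Biopython 1.88, and the counting of calls was tested on simulated data. Alternatives were other fold limits, pseudocounts, treatment of zeros, a filter on low values, 2 rescalings, exchanged dark labels and, chosen after seeing the data, exchanged dark DAYi labels and only members whose RefSeq text names the plastid. The rescalings set totals without AT2G01021 equal, or evened the median ratios of 16815 entries at 1 FPKM or more in every library.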

Additional observations from a re-analysis of the deposited data

Results flagged for a closer look

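The organellar-type ribosomal proteins were higher in bri1-116 than in Col-0 in the dark and lower in the light. Over the entries, the median log2 ratio was 1.33 for the dark pair of libraries and -0.44 for the light pair. L12-3 (RPL12-C) was beyond 2-fold in both, at a log2 ratio of 1.04 in the dark and -1.01 in the light. Each condition is 1 library, and the difference between light conditions was not tested. Rescaled to equal totals without AT2G01021, L12-3 is within 2-fold in both, at 0.91 and -0.61. The light median is then -0.048, with 12 of the entries turned to higher. Rescaled by median ratios, the dark median is 1.35 and the light median -0.44, with none of the entries turned. L12-3 shares sequence windows with L12-1, so its separate values are uncertain. The dark direction rests on the titles of libraries whose genotype fields say the opposite. Across the entries, the library titled dark Col-0 had a Spearman's rho of 0.983 with dark DAYi EtOH, a Col-0 background, and the library titled dark bri1-116 had 0.850, a description over genes. Against the library titled dark Col-0, dark DAYi EtOH had 2.22% of all entries more than 2-fold lower and 2.19% higher. The library titled dark bri1-116 had 9.01% lower and 11.2% higher. Which label is right was not tested.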

How the results depend on the processing

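Of 74 recomputed counts 60 stayed within 1.5 times the reported one, and of 32 recomputed medians 26 moved by less than the controls differed. At 1.5-fold, 18 entries were lower in DAYi in the dark, 1 was higher in DAYi in the light and 9 were lower in bri1-116 in the light. At 4-fold, 0 were lower in DAYi in the dark, 0 higher in bri1-116 in the dark, 0 lower and 0 higher in bri1-116 in the light, and 21 higher in light against dark Col-0. Shares of all entries were not computed at 1.5-fold, nor at 4-fold for these comparisons. These counts therefore show only how the list depends on the limit. Exchanging the dark Col-0 and bri1-116 libraries gave 29 lower, 0 higher and a median of -1.33 in bri1-116 in the dark, and 8 higher with a median of 0.70 in light against dark Col-0. Rescaling without AT2G01021 gave 1 entry higher in DAYi in the light and 0 lower in bri1-116 in the light, with medians of -1.85 (DAYi light), 1.20 (bri1-116 dark), -0.048 (bri1-116 light) and 1.39 (Col-0 light against dark). It moves the median of all entries to 0.32, -0.15, 0.31 and -0.59 in those comparisons. Relative to these, the members stand at -2.17, 1.35, -0.36 and 1.98. The share of all calls that are lower goes from 57.4 to 37.3%, 44.7 to 56.6%, 54.5 to 22.9% and 45.5 to 75.5%. This rescaling also evens out totals that were unequal as deposited, and its effect was not split between the totals and AT2G01021 itself. Rescaling by median ratios gave member medians of -2.21, 1.35, -0.44 and 2.07 in the same comparisons, with no member turned in direction. With only members whose RefSeq text names the plastid, 0 were higher in bri1-116 in the light. The planned restriction to descriptions with the word chloroplastic gave no value, since 0 have it. No paired analysis was possible because each condition has 1 library. Low entries rest on few fragments, and precision cannot be given without counts.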
